A study of Homo sapiens with 60 samples.

Results

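The direct comparison of 2 treatments of A549 cells, the water extract of Polygalae Radix at 500 µg/mL (Polygalae 500) and wortmannin at 10 µM, used 6 of the 60 libraries of the series, 3 for each treatment. Each library was assigned to its group by its label, and all genes were examined. A549 is an established human lung adenocarcinoma line. All cells were harvested after 24 h. The wider series holds 20 groups of 3 libraries, made of extracts at 500, 100 and 20 µg/mL, wortmannin as positive control, and a dimethyl sulfoxide vehicle (Vehicle). Vehicle, Polygalae at 20 and 100 µg/mL and Aucklandiae Radix extract at 500 µg/mL (Aucklandiae 500) are used here only to show where the values lie. The labels give 0.1% dimethyl sulfoxide for Vehicle and the design text 2%, and no label gives a solvent level for the treated groups. Per the design text, toxic extracts were given at less than 500 µg/mL, yet all labels read 500, 100 or 20 µg/mL. Whether the 3 libraries of a group stem from different cultures is not stated in the sources used here. The p-values therefore describe spread among libraries within the 20 groups of the fit, which may be technical.

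Wortmannin is a fungal metabolite that inhibits phosphoinositide 3-kinases, the lipid kinases that pass growth factor signals to AKT and to the mTORC1 complex, and that in another class drive autophagy and endosome traffic. mTORC1 sits on the lysosome, where the Rag GTPases recruit it, and it promotes amino acid, sterol and ribosome synthesis through factors such as ATF4 and SREBP2 while holding the lysosomal factors TFEB and TFE3 in the cytosol. Polygalae Radix is the dried root of Polygala, used in East Asian medicine and known for its triterpenoid saponins.

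Depth was lower with Polygalae 500 (18.7 to 24.4 M expected counts) than with wortmannin (26.5 to 28.0 M), and 22867 to 23485 against 24433 to 24563 genes had a count. Replicates of either group correlated at 0.990 to 0.993 (Pearson, log2 values). The first part of the library name is 4 for Polygalae and Aucklandiae, 1 for wortmannin and A1 for Vehicle. In the comparison with wortmannin, library set and treatment therefore cannot be told apart. Differences from Polygalae 20 and from Aucklandiae 500 stay within 1 set and are given for some of the main genes. The summed level of 5 markers of A549 identity (KRT8, KRT18, KRT7, EPCAM, CDH1) was 6859 to 7265 CPM (counts scaled to library size with TMM factors) with Polygalae 500 and 8149 to 8323 CPM with wortmannin, so the epithelial label held in both, with 4 of the 5 lower in Polygalae 500. Of 8 fibroblast markers 5 were tested and 3 were lower with Polygalae 500. Their sum was 27.3 to 35.5 CPM against 40.2 to 42.6 CPM, mostly COL1A1, and COL1A2 was at 0 in all Polygalae 500 libraries. Endothelial markers summed to at most 0.780 CPM, with KDR at 0, and of 8 blood markers CD3E and HBB were at 0 while CD68 was the highest. In bulk RNA, fewer cells of a type and less RNA per cell cannot be told apart.

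The transcriptomes of the Polygalae 500 and wortmannin libraries differed widely. UAP1L1, NUPR1 and NEU1 were among the genes furthest above wortmannin after Polygalae 500, and IGF2 among those furthest below. By list, ATF4 targets, cholesterol genes and mitosis genes had the highest medians (log2 0.66, 0.66 and 0.50). Of 17368 tested genes, 7644 (44%) differed at an adjusted p under 0.05 in edgeR's quasi-likelihood test. Of these, 4152 (23.9% of genes tested) were higher with Polygalae 500 and 3492 (20.1%) lower. These shares are the background for the TMM counts of each list below. With upper quartile scaling, the split turned to 2992 higher and 4528 lower of 17368, the background for list counts under that scaling. The share of called genes that were higher was 54.3% with TMM and 39.8% with upper quartile scaling. Differences of at least 2-fold were fewer and leaned the other way, with 119 genes higher (0.685%) and 435 lower (2.5%). The 3 libraries of one group lay wholly above the 3 of the other in 9486 genes (54.6%). Against Vehicle, 1804 genes (10.4%) rose and 1647 (9.48%) fell with Polygalae 500, and 3121 (18%) rose and 3378 (19.4%) fell with wortmannin. Both comparisons use the same 3 Vehicle libraries.

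**Figure D1:**
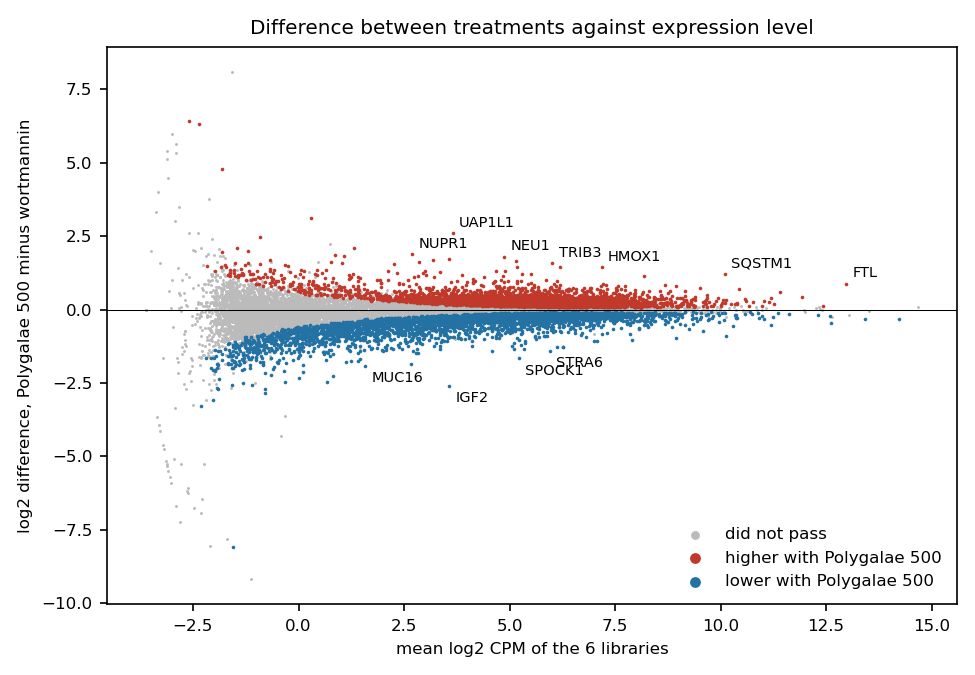
Log2 difference between Polygalae 500 and wortmannin (y axis) against mean log2 CPM of the 6 libraries (x axis) for the 17368 tested genes, with called genes in red (4152 higher) and blue (3492 lower) and others in grey. UAP1L1 (2.61) and IGF2 (−2.59) stand at the ends among the genes labelled.

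Single genes of lysosomal and amino sugar metabolism were far higher after Polygalae 500, although the medians of their lists were small. UAP1L1 (ENSG00000197355; chromosome 9, 137077501 to 137084539), related to the enzyme that makes UDP-N-acetylglucosamine, measured 31.8, 30.8 and 30.3 CPM with Polygalae 500 and 4.67, 4.88 and 5.66 CPM with wortmannin. It was 6.11-fold higher (log2 2.61 ± 0.081 SE, adjusted p = 1.7e-34). Vehicle stood at 7.21 ± 0.522 CPM (SD, n = 3), close to wortmannin. NEU1 (ENSG00000204386; chromosome 6, 31857659 to 31862906), the lysosomal sialidase that removes sialic acid from glycoproteins, measured 51.9, 53.3 and 58.4 CPM against 15.5, 15.1 and 16.2 CPM. Its difference was 3.49-fold (log2 1.80 ± 0.056, adjusted p = 1.5e-34), with Vehicle at 14.2 ± 0.396 CPM, below both. GNPDA1, which turns glucosamine-6-phosphate back into fructose-6-phosphate, measured 118, 121 and 123 CPM against 45.3, 42.6 and 44.4 CPM (log2 1.45 ± 0.048, adjusted p = 3.8e-33). Within the library set, these 3 genes rose from Polygalae 20 to Polygalae 500 by log2 1.83 (UAP1L1), 1.48 (NEU1) and 1.09 (GNPDA1).

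Across the amino sugar and sialic acid list, 12 of 19 tested genes were higher with Polygalae 500 and 3 lower (median log2 0.15, against 0.0025 over all genes tested), and 8 and 4 under upper quartile scaling. AMDHD2, the deacetylase of N-acetylglucosamine-6-phosphate, was among the higher ones (16.7 ± 1.52 against 8.76 ± 0.723 CPM, log2 0.94). GFPT2, an entry enzyme of hexosamine synthesis (−0.36), and the enzymes that add and remove O-linked N-acetylglucosamine, OGT (−0.22) and OGA (−0.20), were the lower ones.

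Genes of the folliculin and Rag machinery, which senses amino acids at the lysosome and controls TFEB and TFE3, were higher in 11 of 21 tested members and lower in 3 (median log2 0.30). FLCN (ENSG00000154803; chromosome 17, 17212212 to 17237188), the tumor suppressor that activates RagC and RagD, measured 66.1, 62.0 and 60.1 CPM with Polygalae 500 and 20.8, 19.1 and 19.9 CPM with wortmannin (log2 1.66 ± 0.056, adjusted p = 1.1e-32). RRAGD, one of those GTPases, measured 8.30, 7.63 and 8.26 CPM against 2.42, 2.96 and 2.83 CPM (log2 1.56 ± 0.13, adjusted p = 1.2e-15). RRAGC (47.0 ± 1.98 against 18.8 ± 0.800 CPM, log2 1.32) and the folliculin partner FNIP1 (60.1 ± 1.32 against 25.9 ± 0.741 CPM, log2 1.22) were also higher. In each of the 4 genes all Polygalae 500 libraries lay above all wortmannin libraries. Such separation, in either direction, held in 54.6% of all genes tested. Vehicle lay near wortmannin, at 25.1 ± 1.09 CPM for FLCN and 1.72 ± 0.413 CPM for RRAGD. The lower ones of the list were TFEB itself (2.79 ± 0.449 against 4.4 ± 0.164 CPM, log2 −0.67), its relative MITF (−0.35) and DEPTOR (−0.49), an mTOR inhibitor. DEPTOR did not pass without Polygalae 500 replicate 1 (adjusted p = 0.072) or 3 (0.11), or without wortmannin replicate 2 (−0.35, 0.17) or 3 (0.056).

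**Figure D2:**
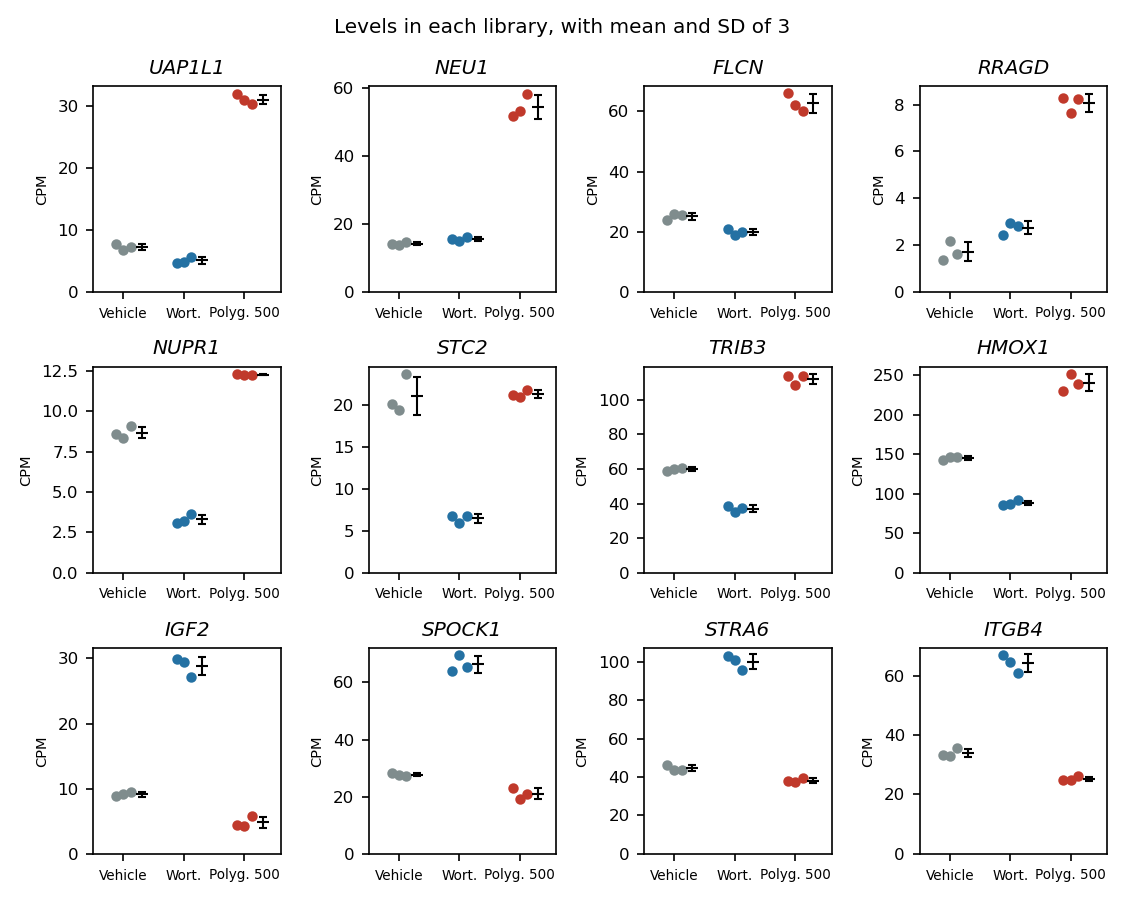
CPM (y axis) in each library of Vehicle, wortmannin and Polygalae 500 for 12 genes, with mean and SD of 3 libraries as black bars. The 8 genes of the upper rows are higher in every Polygalae 500 library than in every wortmannin library, and the 4 genes of the last row are lower. Most of the genes shown were named by a rule that required groups that did not overlap.

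Lysosomal hydrolases and membrane proteins were more often higher than lower with Polygalae 500. Of 41 tested members, 20 were higher with Polygalae 500 and 8 lower (median log2 0.11). The lower count is near the 20.1% over all genes tested. Under upper quartile scaling 20 were higher and 12 lower (median 0.051). Besides NEU1, the higher ones included the cysteine protease CTSL, at 413, 434 and 447 CPM against 202, 191 and 196 CPM (log2 1.14 ± 0.035, adjusted p = 1.5e-34). The cystine exporter CTNS (log2 1.05), the cholesterol exporter NPC1 (0.99) and the sialic acid exporter SLC17A5 (0.96) followed. Among the 8 lower ones were MAN2B1, the lysosomal alpha-mannosidase, at 31.0 ± 1.90 against 48.0 ± 2.19 CPM (log2 −0.63), FUCA1, the fucosidase (−0.55), and GAA, the acid alpha-glucosidase (79.6 ± 3.80 against 114 ± 3.40 CPM, −0.52). Against Vehicle, 28 of the 41 rose and none fell with Polygalae 500, and 27 rose and 5 fell with wortmannin. For MAN2B1, FUCA1 and GAA, Vehicle lay near Polygalae 500, at 33.2, 9.74 and 81.1 CPM.

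Subunits of the vacuolar ATPase, the proton pump that acidifies the lysosome, were higher with Polygalae 500 in 14 of 16 genes and lower in 2, ATP6AP2 (−0.20) and ATP6V0A2 (−0.13). The median was log2 0.25. ATP6V0A2 did not pass without Polygalae 500 replicate 1 (−0.11, adjusted p = 0.067) or wortmannin replicate 1 (−0.086, 0.14). ATP6V0B was at 47.2 ± 2.45 CPM with Polygalae 500 and 28.7 ± 0.382 CPM with wortmannin (log2 0.72 ± 0.063, adjusted p = 9.7e-15). Against Vehicle, 12 subunits rose and none fell with Polygalae 500, while 2 rose and 5 fell with wortmannin. Autophagy genes were higher in 12 of 29 and lower in 2 (median log2 0.10), and in 7 and 3 under upper quartile scaling. The largest difference was in SQSTM1, the p62 cargo receptor, which measured 1644, 1691 and 1683 CPM against 740.1, 712 and 715 CPM (log2 1.21 ± 0.032, adjusted p = 9.9e-38). UVRAG, a subunit of a class III kinase complex, was higher too (0.60), as was MAP1LC3B (0.36), which coats the autophagosome.

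Promoter sequence was described for these genes because TFEB and its relatives are known to bind the CLEAR motif. The letters TCACGTGA, which read the same on both strands, were searched in RefSeq windows (GRCh38.p14) from 250 bases before to 50 after the start. They were present in 5 of 27 lysosomal promoters (18.5%) and 2 of 11 vacuolar ATPase promoters (18.2%), beside 1.04% of all 27305 promoters and 1.84% of those of tested genes. In the other lists described above they were present in 1 of 17 folliculin and Rag promoters (5.88%), 1 of 26 autophagy promoters (3.85%) and 0 of 18 amino sugar promoters, and the IGF2 family held them in 2 of 9 (22.2%). A match is a description of letters and not a site. The windows below hold the motif in capitals, 5′ to 3′ along the gene, and none of the other 5 searched motifs overlaps the capitals.
LAMP1 (chr13:113297188-113297238, plus strand): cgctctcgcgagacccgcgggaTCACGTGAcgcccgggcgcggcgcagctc
MCOLN1 (chr19:7522560-7522611, plus strand): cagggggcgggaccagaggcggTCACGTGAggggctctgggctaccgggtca
CTSA (chr20:45891287-45891334, plus strand): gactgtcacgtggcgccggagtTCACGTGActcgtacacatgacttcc
ATP6V0D1 (chr16:67481188-67481239, minus strand): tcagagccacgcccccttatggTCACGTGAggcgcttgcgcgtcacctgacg
The levels of these genes differed by less than those of NEU1. LAMP1, a lysosomal membrane glycoprotein, measured 117, 123 and 121 CPM against 100.0, 97.7 and 98.2 CPM (log2 0.29). MCOLN1, the lysosomal calcium channel, was at 11.9 ± 0.496 against 8.0 ± 0.153 CPM (0.57). CTSA, the protective protein that stabilises NEU1, was at 101 ± 2.80 against 86.2 ± 1.35 CPM (0.24), and ATP6V0D1 at 58.5 ± 2.82 against 49.2 ± 0.166 CPM (0.25). GAA, which holds the letters as well, was lower with Polygalae 500.

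ATF4 targets and other genes of amino acid supply were higher with Polygalae 500, and wortmannin lay below Vehicle for most of them. ATF4 is a transcription factor of the integrated stress response that turns on amino acid synthesis, transport and tRNA charging. Of 24 tested ATF4 targets, 19 were higher and 1, SESN2 (−0.22), lower, with a median log2 of 0.66. SESN2 did not pass without Polygalae 500 replicate 2 (−0.20, adjusted p = 0.066). Against Vehicle, 21 of the 24 fell and none rose with wortmannin (median −0.50), whereas 7 rose and 10 fell with Polygalae 500 (median −0.10).

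NUPR1 (ENSG00000176046; chromosome 16, 28532708 to 28539174), a small stress-induced chromatin protein, measured 12.3, 12.2 and 12.2 CPM with Polygalae 500 and 3.11, 3.21 and 3.61 CPM with wortmannin (log2 1.88 ± 0.10, adjusted p = 4.8e-23). TRIB3, a pseudokinase that binds AKT, measured 113, 108 and 114 CPM against 38.9, 34.9 and 37.6 CPM (1.59 ± 0.048, adjusted p = 8.4e-35), and the stress factor DDIT3 11.8, 14.0 and 11.5 CPM against 4.22, 4.28 and 3.69 CPM (1.62 ± 0.10). In all 3 genes Vehicle lay between the treatments, and within the library set Polygalae 500 was above Polygalae 20 by 0.31 (NUPR1), 0.59 (TRIB3) and 0.40 (DDIT3). STC2, a secreted glycoprotein, showed another pattern, with 21.2, 21.0 and 21.8 CPM against 6.82, 5.91 and 6.76 CPM (1.71 ± 0.073, adjusted p = 5.9e-28) and Vehicle at 21.1 ± 2.26 CPM. Its difference from Vehicle was 0.01 with Polygalae 500 (adjusted p = 0.91) and −1.70 with wortmannin, and 0.13 from Polygalae 20 (adjusted p = 0.15).

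Other targets lay below Vehicle with both treatments, lower with wortmannin. Asparagine synthetase, ASNS, measured 69.6, 72.4 and 66.7 CPM against 28.4, 29.6 and 31.9 CPM (1.22 ± 0.056, adjusted p = 3.5e-26), beside 97.4 ± 2.35 CPM in Vehicle. CHAC1, which degrades glutathione, was at 3.39 ± 0.432 against 1.14 ± 0.232 CPM (1.57) and 6.46 ± 0.786 CPM in Vehicle. Within the library set, ASNS fell from Polygalae 20 to Polygalae 500 by 0.51 on the log2 scale (adjusted p = 8.2e-12). GDF15, a stress cytokine, did the opposite and rose by 0.71 (adjusted p = 1.9e-15), and its direct difference from wortmannin was 1.32. The ATF4 gene itself was at 240.5 ± 6.78 against 172 ± 1.55 CPM (0.49).

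Enzymes of serine and one-carbon metabolism were higher in 11 of 16 genes and lower in 2 (median 0.17). The median was 0.27 without wortmannin replicate 1, and 0.11 with 8 higher under upper quartile scaling. PSAT1 and PHGDH, which make serine, were at 210.4 ± 5.05 against 116 ± 2.55 CPM (0.85) and 44.0 ± 0.816 against 26.0 ± 0.725 CPM (0.76), and the mitochondrial folate enzyme MTHFD2 was higher as well (0.71). Amino acid transporters were higher in 8 of 14 and lower in 1, and in 6 and 3 under upper quartile scaling. The heavy chain SLC3A2 (941 ± 17.7 against 572 ± 6.02 CPM, 0.72) and its leucine-carrying partner SLC7A5 (3335 ± 76.3 against 2204 ± 43.2 CPM, 0.60) were higher, and SLC38A2, a sodium-coupled neutral amino acid carrier, was lower (−0.38). The cystine carrier SLC7A11 did not pass (501 ± 40.3 against 476 ± 18.0 CPM, 0.07 ± 0.043, adjusted p = 0.16), but passed without Polygalae 500 replicate 2 (0.14, adjusted p = 0.0083).

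Cytosolic aminoacyl-tRNA synthetases, which charge tRNAs with amino acids, were higher in 18 of 20 genes (median 0.25), and in 15 under upper quartile scaling. YARS1, for tyrosine, measured 137, 141 and 140.3 CPM against 82.2, 82.7 and 86.2 CPM (0.74 ± 0.028, adjusted p = 1.1e-30), and AARS1, for alanine, 276, 283 and 283 CPM against 187, 186 and 189.6 CPM (0.58). The exception was QARS1, for glutamine, at 90.8 ± 1.64 against 128 ± 2.01 CPM (−0.49). Against Vehicle, 14 of 20 fell and none rose with Polygalae 500, and 19 fell and 1 rose with wortmannin. Both treatments thus lay below Vehicle for most of these enzymes.

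The amino acid response core TGATGNAA (N, any base; both strands) was present in 6 of 16 synthetase promoters (37.5%), 3 of 13 amino acid transporter promoters (23.1%) and 3 of 21 ATF4 target promoters (14.3%), beside 3.67% of all promoters and 1.67% of those of tested genes. The windows of 4 genes of this set were picked because their levels differed in the same direction. Most ATF4 targets and synthetases were higher, with the motif in a minority of the promoters of either list. The part of the motif in the result was not tested. Capitals mark the motif, which reads TTGCATCA where it lies on the other strand.
ASNS (chr7:97872447-97872498, minus strand): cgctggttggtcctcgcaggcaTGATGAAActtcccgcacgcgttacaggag
CHAC1 (chr15:40953240-40953291, plus strand): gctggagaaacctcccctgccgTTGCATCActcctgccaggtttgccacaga
AARS1 (chr16:70289664-70289715, minus strand): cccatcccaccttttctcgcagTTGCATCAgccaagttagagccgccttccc
ATF3 (chr1:212565194-212565245, plus strand): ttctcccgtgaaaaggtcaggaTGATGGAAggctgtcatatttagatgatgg
ATF3, a stress factor of the same family, was at 6.69 ± 0.478 against 2.69 ± 0.0308 CPM (1.31). The motif lay 68 bases before the start in ASNS and 187 in AARS1.

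**Figure D3:**
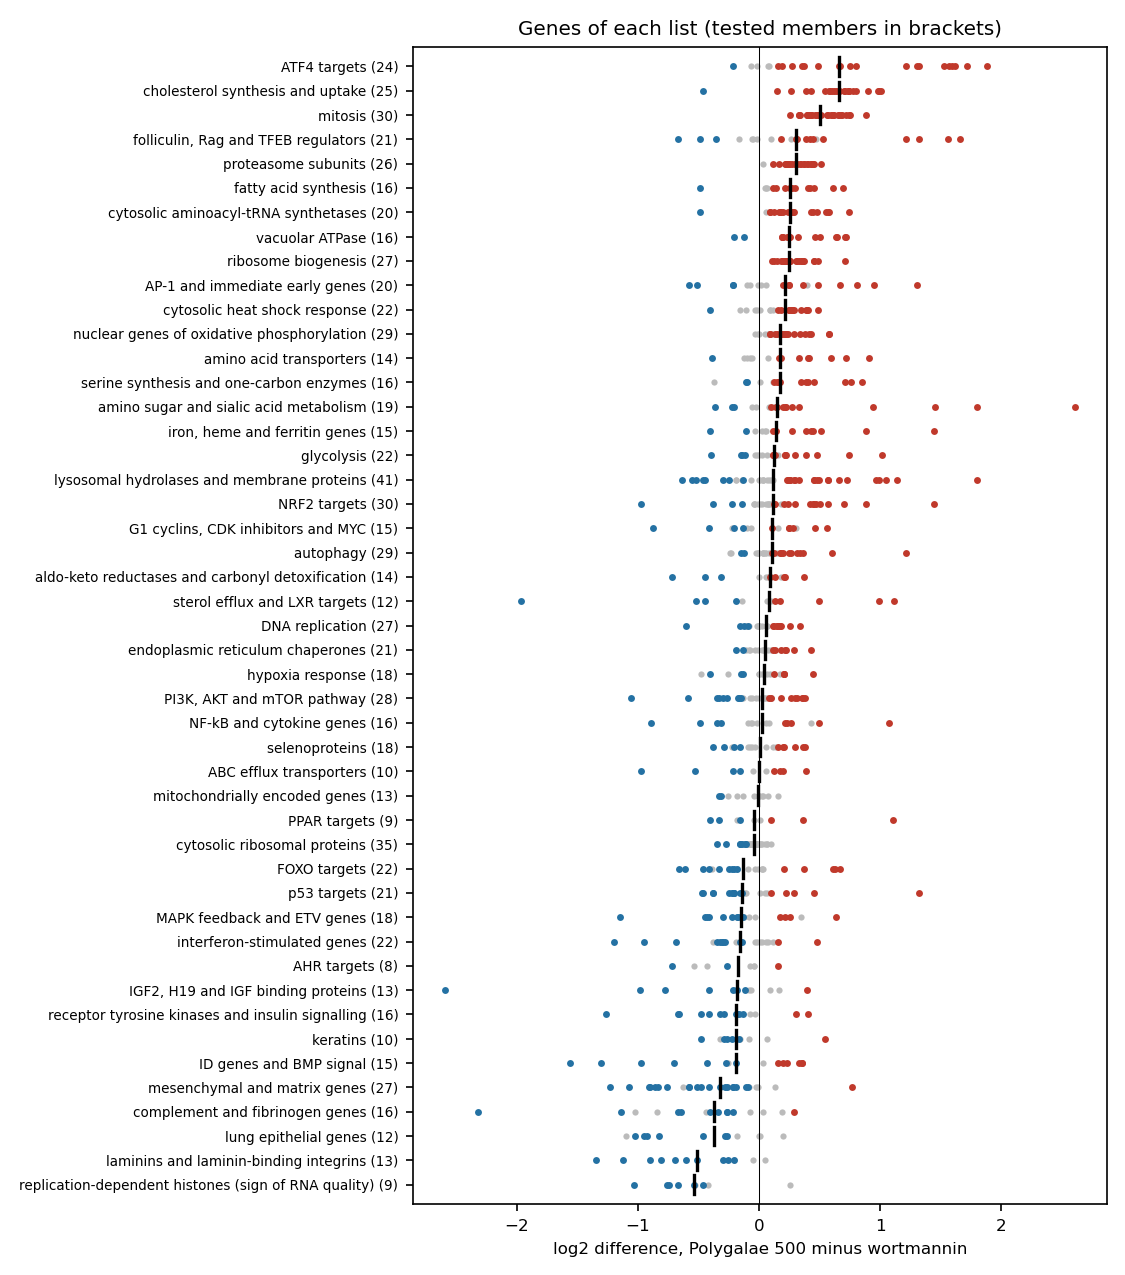
Log2 difference between Polygalae 500 and wortmannin (x axis) for each tested gene of the lists with at least 8 tested members (y axis), red for called higher, blue for called lower and grey for not called, with the list median as a black bar. ATF4 targets, cholesterol genes and mitosis genes lie highest, laminins and histones lowest.

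Genes of mitosis were all higher with Polygalae 500. All 30 tested members passed (median log2 0.50, range 0.26 to 0.88), and in all 30 the Polygalae 500 libraries lay above the wortmannin libraries. Over all genes tested, the groups did not overlap, in either direction, in 54.6%. The count was 29 under upper quartile scaling. Cyclin B1, CCNB1, measured 193, 201 and 205 CPM against 108, 106 and 110.4 CPM (0.88 ± 0.044, adjusted p = 1.5e-24). The spindle kinase AURKA measured 154, 160.0 and 159.8 CPM against 95.3, 91.7 and 94.0 CPM (0.75 ± 0.029). Vehicle was at 204 ± 4.42 CPM for CCNB1 and 162 ± 0.716 CPM for AURKA, and neither gene passed between Vehicle and Polygalae 500 (adjusted p = 0.68 and 0.4). Over the list, 30 fell with wortmannin against Vehicle (median −0.62), while 11 fell and none rose with Polygalae 500 (median −0.08). Within the library set, CCNB1 differed from Polygalae 20 by −0.06 (adjusted p = 0.36).

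The cell cycle homology region TTTGAA (both strands) was present in 18 of 25 mitosis promoters (72%), beside 15.4% of all promoters and 9.86% of those of tested genes. The windows of 3 members follow, with the motif in capitals. PLK1 is the polo kinase of mitotic entry, CDC20 the activator of the anaphase-promoting complex, and CCNB2 a second mitotic cyclin.
CCNB2 (chr15:59105095-59105144, plus strand): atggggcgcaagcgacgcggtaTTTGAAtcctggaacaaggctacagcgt
PLK1 (chr16:23678838-23678887, plus strand): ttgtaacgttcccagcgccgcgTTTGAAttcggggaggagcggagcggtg
CDC20 (chr1:43358894-43358943, plus strand): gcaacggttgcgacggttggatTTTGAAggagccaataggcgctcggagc
They differed by similar amounts, with CCNB2 at 101 ± 3.66 against 63.3 ± 0.828 CPM (0.68), PLK1 at 178 ± 9.60 against 112 ± 1.48 CPM (0.66) and CDC20 at 132 ± 3.07 against 82.7 ± 2.26 CPM (0.67).

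DNA replication genes moved less, with 11 of 27 higher and 4 lower (median 0.06). Under upper quartile scaling 6 were higher and 7 lower and the median was −0.0021. CCNE2, the S phase cyclin E2, was the largest difference and lower with Polygalae 500 (6.79 ± 1.20 against 10.4 ± 1.01 CPM, −0.60). Of 15 tested G1 cyclins, kinases and inhibitors, 6 were higher, led by CDK4 (213 ± 1.15 against 144 ± 4.07 CPM, 0.56), and 4 lower, led by the MAX partner MXD4 (20.2 ± 0.956 against 37.2 ± 0.468 CPM, −0.88). The counts were 5 and 5 under upper quartile scaling. The proliferation marker MKI67 differed by 0.26 (adjusted p = 0.014), but not without wortmannin replicate 1 (0.23, adjusted p = 0.058).

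Genes of ribosome and proteasome assembly were higher with Polygalae 500. All 27 tested ribosome biogenesis genes passed (median 0.25), among them the nucleolar chaperone NPM1, at 1729 ± 103 against 1338 ± 7.18 CPM (0.37), and RRP9 (0.71), which processes ribosomal RNA. With upper quartile scaling 23 passed. All 27 fell with wortmannin against Vehicle (median −0.33), while 4 rose and 5 fell with Polygalae 500. Proteasome subunits were higher in 25 of 26 genes (median 0.30), as with PSMC3, an ATPase of the regulatory particle, at 122 ± 2.86 against 85.9 ± 2.20 CPM (0.51). Against Vehicle all 26 fell with wortmannin, and 2 fell with Polygalae 500. Nuclear genes of oxidative phosphorylation were higher in 19 of 29 and lower in none (median 0.17, 11 higher and 1 lower under upper quartile scaling), led by SDHB (0.58) and cytochrome c, CYCS (0.57). Cytosolic ribosomal proteins were lower in 7 of 35, near the 20.1% over all genes tested, and higher in none. Their median was −0.041, with 13 lower under upper quartile scaling, where 4528 of all 17368 genes tested were lower. Mitochondrially encoded genes were lower in 2 of 13. One of these, MT-CO1, did not pass without wortmannin replicate 2 (−0.24, adjusted p = 0.053). Heat shock genes were higher in 13 of 22, led by the mitochondrial co-chaperonin HSPE1 (0.49), and lower in 1, HSPB1 (−0.40), with 11 and 2 under upper quartile scaling.

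Cholesterol genes were higher with Polygalae 500 in 24 of 25 members (median log2 0.66). All 25 rose against Vehicle with Polygalae 500 (median 0.83), and 18 rose and 1 fell with wortmannin (median 0.20). INSIG1, the sterol-sensitive brake on SREBP processing and itself a target of it, measured 85.7, 80.4 and 79.9 CPM against 40.1, 42.4 and 39.8 CPM (1.01 ± 0.043, adjusted p = 5.8e-28), with Vehicle at 40.6 ± 1.18 CPM. MVK and MVD, enzymes of the mevalonate pathway, were at 43.5 ± 0.573 against 21.9 ± 0.178 CPM (0.99) and 54.1 ± 4.00 against 27.4 ± 0.561 CPM (0.98). TM7SF2, a sterol reductase, was the exception, at 8.78 ± 0.235 against 12.1 ± 0.137 CPM (−0.47), and above Vehicle with both (5.43 ± 0.707 CPM). Within the library set INSIG1 was 1.05 above Polygalae 20 (log2, adjusted p = 8.2e-28).

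The sterol regulatory core TCACNCCA was present in 3 of 18 cholesterol promoters (16.7%), beside 3.93% of all promoters and 3.39% of those of tested genes. It was not particular to them. Promoters of AP-1 and immediate early genes and of hypoxia genes each held it in 3 of 16 (18.8%), and those of NRF2 targets in 3 of 22 (13.6%). The windows of 2 sterol enzymes with this core follow. INSIG1 is shown beside them because it holds TCACGTGA and not this core. Capitals mark the motif in each.
MSMO1 (chr4:165327491-165327542, plus strand): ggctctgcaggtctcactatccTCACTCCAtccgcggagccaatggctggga
MVK (chr12:109573577-109573628, plus strand): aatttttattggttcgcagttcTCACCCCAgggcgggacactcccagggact
INSIG1 (chr7:155297800-155297851, plus strand): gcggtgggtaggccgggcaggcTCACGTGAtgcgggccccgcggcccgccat
MSMO1, a sterol demethylase, was at 82.5 ± 0.813 against 48.3 ± 1.79 CPM (0.77) and 32.7 ± 0.236 CPM in Vehicle.

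Fatty acid genes were higher in 12 of 16 and lower in 1, and in 10 and 1 under upper quartile scaling. The desaturase SCD measured 1780.2, 1766 and 1751 CPM against 1117, 1104 and 1063 CPM (0.69 ± 0.039), and ACACB, the carboxylase that restrains fatty acid oxidation, was the lower one (26.4 ± 1.92 against 37.0 ± 1.96 CPM, −0.48). Sterol efflux genes split, with 5 of 12 higher and 4 lower, and 3 and 4 under upper quartile scaling. APOE, the lipid carrier, measured 10.2, 9.42 and 9.26 CPM against 4.36, 4.62 and 4.4 CPM (1.11 ± 0.12, adjusted p = 5.6e-12). The exporters ABCA1 (8.59 ± 0.502 against 12.3 ± 0.347 CPM, −0.52) and ABCG1 (0.301 ± 0.155 against 1.21 ± 0.380 CPM, −1.96 ± 0.34) were lower. The lipid droplet protein PLIN2 was at 30.9 ± 1.86 against 14.4 ± 0.227 CPM (1.11), one of 3 higher and 3 lower among 9 tested PPAR targets (2 and 5 under upper quartile scaling).

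**Figure D4:**
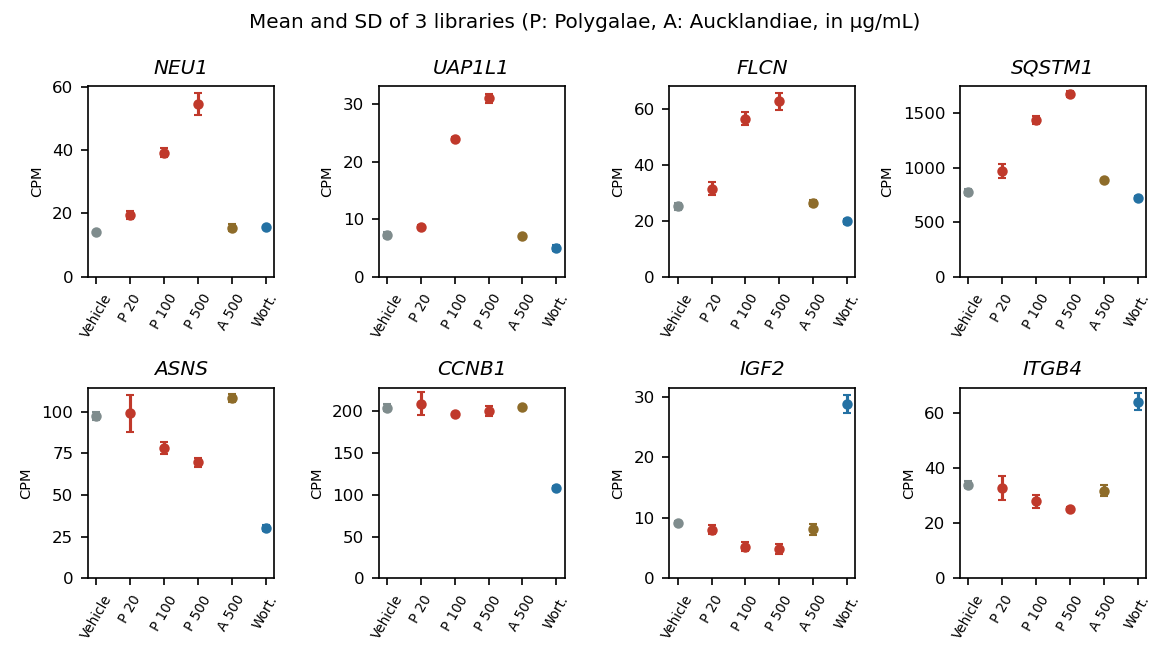
Mean and SD (3 libraries each) of CPM (y axis) for 8 genes in Vehicle, Polygalae (P) at 20, 100 and 500 µg/mL, Aucklandiae (A) at 500 µg/mL and wortmannin. NEU1, UAP1L1, FLCN and SQSTM1 were higher at each larger Polygalae dose, and CCNB1 with wortmannin was 108 CPM beside 199.8 CPM with Polygalae 500.

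The plot of 8 genes by dose places the direct difference against groups of the same library set. NEU1 was at 19.6, 39.2 and 54.5 CPM at 20, 100 and 500 µg/mL of Polygalae, beside 15.5 CPM in Aucklandiae 500 and 15.6 CPM with wortmannin. FLCN was at 31.5, 56.5 and 62.7 CPM, beside 26.5 CPM in Aucklandiae 500. For both genes Polygalae 500 differed from Aucklandiae 500 (log2 1.81 and 1.25, adjusted p = 1.1e-33 and 3.8e-27), a comparison within 1 library set. IGF2 went the other way, at 8.06, 5.25 and 4.82 CPM.

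Genes of iron handling and oxidant defence were mixed around a few large differences. HMOX1, the heme-degrading enzyme (ENSG00000100292; chromosome 22, 35380361 to 35394214), measured 230.3, 252 and 238 CPM with Polygalae 500 and 86.2, 86.8 and 91.5 CPM with wortmannin (1.45 ± 0.045, adjusted p = 1.5e-34). Vehicle, at 145 ± 2.37 CPM, lay between them, and Polygalae 500 was 0.64 above Polygalae 20 on the log2 scale. The ferritin light chain FTL measured 10432, 11368 and 10947 CPM against 6056, 5960.1 and 5702 CPM (0.89 ± 0.057); its processed pseudogenes make the exact value uncertain. Of 15 iron and heme genes, 9 were higher and 2 lower, including the iron exporter SLC40A1 (−0.41). With upper quartile scaling 7 were higher and 2 lower. Of 30 NRF2 targets, 14 were higher and 4 lower (median 0.11), and 12 and 8 under upper quartile scaling. The glutathione synthesis subunit GCLM was higher (0.50), the exporter ABCC3 lower (348 ± 3.37 against 685 ± 2.46 CPM, −0.98), and NQO1, often read as an NRF2 marker, did not pass (1459 ± 21.1 against 1505 ± 59.9 CPM, −0.04 ± 0.040, adjusted p = 0.38; −0.11 and 0.023 under upper quartile scaling).

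The remaining genes with the largest excess were HS1BP3 (59.4 ± 3.57 against 21.9 ± 1.20 CPM, log2 1.44) and RAB3IL1, an exchange factor of Rab GTPases (16.2 ± 1.31 against 5.06 ± 0.989 CPM, 1.68). Both were named by the rule for the largest differences, which required groups that did not overlap.

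Among genes lower with Polygalae 500, that is higher with wortmannin, IGF2 led. IGF2 (ENSG00000167244; chromosome 11, 2129112 to 2149603), a fetal growth factor that signals through the IGF1 receptor, measured 4.43, 4.24 and 5.79 CPM with Polygalae 500 and 29.9, 29.4 and 27.2 CPM with wortmannin. It was 6.04-fold lower with Polygalae 500 (−2.59 ± 0.11, adjusted p = 1.1e-27). Vehicle, at 9.16 ± 0.362 CPM, lay between, with a rise of 1.65 with wortmannin and a fall of 0.94 on the log2 scale with Polygalae 500. Reads of IGF2 can also be assigned to the overlapping read-through gene INS-IGF2. The neighbouring noncoding gene H19 was at 68.2 ± 7.89 and 60.6 ± 2.62 CPM, a difference of 0.17 ± 0.12 that did not pass (adjusted p = 0.26). Without the filter on low counts it passed (0.16, adjusted p = 0.0052). H19 was below Vehicle (132 ± 4.48 CPM) with both. Of 13 tested genes of this family, 7 were lower and 1 higher, IGF2R, the clearance receptor (0.39). IGFBP5, a binding protein, was at 10.2 ± 1.09 against 20.2 ± 0.916 CPM (−0.99), and IGFBP7 was lower too (−0.78).

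Other genes with large differences in this direction had varied roles. SPOCK1, a secreted proteoglycan, measured 23.1, 19.4 and 20.9 CPM against 63.9, 69.6 and 65.5 CPM (−1.65 ± 0.061, adjusted p = 9e-31). STRA6, the retinol transporter, measured 37.7, 37.2 and 39.4 CPM against 103, 101 and 95.9 CPM (−1.39 ± 0.055, adjusted p = 1.2e-29), and the matrix protease ADAMTS10 15.0, 14.1 and 15.0 CPM against 38, 39.4 and 39.1 CPM (−1.40). For these 3 genes Vehicle, at 27.8, 44.6 and 18.7 CPM, was nearer to Polygalae 500 than to wortmannin. Polygalae 500 differed from Polygalae 20 by −0.18 for SPOCK1 (adjusted p = 0.073), −0.17 for STRA6 (0.037) and −0.41 for ADAMTS10 (0.00032). SLITRK6 (−1.84), the mucin MUC16 (−1.91), the protocadherin PCDH1 (−1.41), the axonemal dynein DNAH1 (−1.42), the potassium channel KCND1 (−1.36), the scaffold KSR2 (−1.37) and PLEK2 (−1.35) were lower at levels of 5.59 to 11.8 CPM with wortmannin. AP003419.1 was lower too (−1.49 ± 0.54, adjusted p = 0.022), but did not pass without Polygalae 500 replicate 2 (−1.53, adjusted p = 0.056), Polygalae 500 replicate 3 (−1.27, 0.091) or wortmannin replicate 2 (−1.33, 0.075).

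Laminins and the integrins that bind them formed the list with the lowest median among those of 13 or more tested members (−0.51). Of 13, 10 were lower and none higher, and 10 rose against Vehicle with wortmannin. The integrin ITGB4 (ENSG00000132470; chromosome 17, 75721328 to 75757818) measured 25.0, 24.7 and 26.1 CPM against 67.0, 64.5 and 61.0 CPM (−1.34 ± 0.061, adjusted p = 1.4e-26). The laminin chain LAMB3 was at 16.5 ± 2.13 against 26.6 ± 0.372 CPM (−0.69). In both genes the groups were separate, as in 54.6% of all genes tested. Vehicle was at 34.0 ± 1.40 CPM for ITGB4, nearer to Polygalae 500, and Polygalae 500 differed from Polygalae 20 by −0.38.

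Mesenchymal and matrix genes were lower in 20 of 27 and higher in 1, ANKRD1, a YAP target (19 ± 2.08 against 11.1 ± 0.153 CPM, 0.77). The median was −0.32. The gelatinase MMP2 was at 6.66 ± 0.795 against 15.7 ± 0.309 CPM (−1.23), the collagen COL5A1 at 92.7 ± 4.34 against 195 ± 8.62 CPM (−1.07) and fibronectin, FN1, at 788, 783 and 873 CPM against 1571, 1439.8 and 1538 CPM (−0.90). Against Vehicle, 17 fell and 1 rose with Polygalae 500, whereas 11 rose and 3 fell with wortmannin. The fibroblast marker sum was also lower with Polygalae 500 (27.3 to 35.5 against 40.2 to 42.6 CPM). It was mostly COL1A1, which is a member of this list too, so the sum is not a separate observation. The part of this sum in the result was not tested.

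Lung epithelial genes were lower in 7 of 12 tested and higher in none (median −0.37); 8 further genes of the list, among them NKX2-1 and the surfactant proteins, were not tested because of low counts. ABCA3, the lamellar body lipid pump, measured 25.5, 25.7 and 27.1 CPM against 52.7, 54.4 and 51.8 CPM (−1.02 ± 0.060, adjusted p = 1.2e-21). Vehicle was at 26.1 ± 0.254 CPM, level with Polygalae 500. The membrane mucin MUC1 was at 2.12 ± 0.120 against 4.03 ± 0.198 CPM (−0.92). Keratins were lower in 5 of 10 and higher in 1, KRT4 (0.54). Complement and fibrinogen genes were lower in 9 of 16 and higher in 1, the decay factor CD55 (0.29), with a median of −0.37. C3, the central component, measured 27.2, 26.1 and 29.8 CPM against 59.8, 61.4 and 60.7 CPM (−1.14 ± 0.083), and factor B, CFB, was at 0.434 ± 0.235 against 2.11 ± 0.190 CPM (−2.32 ± 0.28).

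Signal pathway genes named for the kinases that wortmannin inhibits showed a mixed picture. Of 28 genes of the phosphoinositide 3-kinase, AKT and mTOR pathway, 9 were higher and 9 lower (median 0.02). Under upper quartile scaling 6 were higher and 11 lower (median −0.038). TSC1 (54.0 ± 0.834 against 41.4 ± 1.65 CPM, 0.38), the brake on RHEB, and RHEB (0.36), the activator of mTORC1, were higher. INPP4B, a lipid phosphatase, was lower (16.7 ± 0.973 against 25.0 ± 1.77 CPM, −0.59), as were the regulatory subunits PIK3R1 (−0.30) and PIK3R2 (−0.33). A further subunit, PIK3R3 (−0.27), did not pass without Polygalae 500 replicate 1 (adjusted p = 0.073) or 2 (0.18), or without wortmannin replicate 2 or 3 (both 0.052).

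Receptor tyrosine kinases and insulin signalling genes were lower in 11 of 16 and higher in 2, FGFR1 (0.41) and AXL (0.31), with a median of −0.19. The collagen receptor DDR1 measured 60.7, 63.5 and 58.3 CPM against 86.9, 84.7 and 82.8 CPM (−0.48 ± 0.041), ERBB3 was at 7.32 ± 1.06 against 11.5 ± 0.306 CPM (−0.66) and FGFR3 at 7.45 ± 0.619 against 11.9 ± 0.925 CPM (−0.67). Against Vehicle, 11 of 16 rose with wortmannin and 1 with Polygalae 500. IRS2, an insulin receptor substrate, did not pass (133 ± 6.60 against 136 ± 1.28 CPM, adjusted p = 0.67). FOXO targets, which AKT holds down, were lower in 9 of 22 and higher in 5, with the E3 adaptor KLHL24 (0.61) and the atypical cyclin CCNG2 (0.63) among the higher ones and FOXO4 itself lower (−0.61). FOXO4 did not pass without Polygalae 500 replicate 2 (−0.54, adjusted p = 0.053). MAPK feedback and ETV genes were lower in 9 of 18 and higher in 4, the phosphatases DUSP6 (−0.45) and DUSP5 (0.63) on opposite sides. With upper quartile scaling 11 were lower and 3 higher.

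Inflammatory and early-response lists were small, and over all genes tested 23.9% were higher and 20.1% lower. Interferon-stimulated genes were lower in 10 of 22 and higher in 2, with MX1, a GTPase against viruses, at 0.580 ± 0.153 against 1.31 ± 0.435 CPM (−1.20). NF-kB and cytokine genes were higher in 5 of 16 and lower in 4. CXCL2, a neutrophil chemokine, was at 3.89 ± 0.377 against 1.84 ± 0.303 CPM (1.08), and the cytokine IL11 at 12 ± 0.526 against 22.2 ± 0.632 CPM (−0.89). Their median, 0.02, turned to −0.040 under upper quartile scaling, with 3 higher and 5 lower. AP-1 and immediate early genes were higher in 9 of 20 and lower in 4 (9 and 6 under upper quartile scaling), JUNB among the latter (45.0 ± 1.43 against 67.0 ± 3.10 CPM, −0.58).

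Of 21 p53 targets, 5 were higher, led by GDF15, and 11 lower, among them CDKN1A, the p21 inhibitor (76.6 ± 1.31 against 88.3 ± 0.490 CPM, −0.20). ID and BMP signal genes split between 6 higher, such as ID1 and ID3 (both 0.36), and 7 lower, such as BMP2 (0.270 ± 0.103 against 0.656 ± 0.0408 CPM, −1.30), and were 4 and 8 under upper quartile scaling. Of 7 tested metallothionein and zinc transport genes, 3 were higher and 3 lower (2 and 3 under upper quartile scaling). The lower ones were the metallothioneins MT2A (41.1 ± 1.15 against 77.1 ± 3.07 CPM, −0.91), MT1X (−0.66) and MT1F (−1.21), near-identical copies whose values are uncertain. Glycolysis genes were higher in 12 of 22 and lower in 4 (9 and 6 under upper quartile scaling), with ALDOC at 6.10 ± 0.483 against 3.02 ± 0.175 CPM (1.01) and the glucose carrier SLC2A3 at 59.3 ± 2.02 against 35.5 ± 0.721 CPM (0.74). Hypoxia genes were higher in 5 of 18 and lower in 3, endoplasmic reticulum chaperones in 7 and 2 of 21, selenoproteins in 6 and 4 of 18, ABC efflux transporters in 4 and 4 of 10, aldo-keto reductases and carbonyl enzymes in 5 and 3 of 14, and AHR targets in 1 and 2 of 8. Under upper quartile scaling these counts were 4 and 3 for hypoxia, 5 and 5 for chaperones, 3 and 6 for selenoproteins, 2 and 4 for ABC transporters, 3 and 3 for aldo-keto reductases and 0 and 5 for AHR targets. Over all genes tested, 23.9% were higher and 20.1% lower with TMM, and 2992 higher and 4528 lower of 17368 with upper quartile scaling. Counts near these shares are not read as results about the lists.

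By annotated type, protein-coding genes were higher in 3939 and lower in 3032 of 13716, while long intergenic noncoding RNAs were higher in 47 and lower in 115 of 773 (median −0.16). Both shares of these noncoding RNAs are below the 23.9% higher and 20.1% lower over all genes tested. These RNAs took 0.341 to 0.382% of counts with Polygalae 500 and 0.410 to 0.430% with wortmannin. By exon length, 29.6% of genes in the longest quintile (7615 to 205012 bases) were lower with Polygalae 500 and 21.2% higher. In the shortest (69 to 2121 bases) 9.65% were lower and 16% higher, so fewer short genes were called in either direction. Replication-dependent histones, whose mRNAs mostly lack a poly(A) tail, were listed as a possible sign of RNA quality. They were lower in 6 of 9 (median −0.54), with H1-2 at 3.13 ± 0.540 against 6.42 ± 0.514 CPM. The part of RNA quality and depth in the results was not tested.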

How the data were processed

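Total RNA of A549 cells (RIN above 7) was sequenced as 100-base paired reads from a stranded library kit, per the labels' protocols. The authors deposited expected counts per gene on GRCh38, and FastQC 0.11.9, Trim Galore 0.6.5, STAR 2.7.3a and RSEM 1.3.3 are named per the submitters' processing notes. For counting, neither the gene annotation's release nor whether strand was used is given in these sources, which leaves overlapping and antisense genes uncertain. Of the deposited expected counts, 10.7% were not whole, and all were rounded. Gene symbols came from the reference table given (41209 of 60675 genes) or GENCODE 29 (15846), which also gave coordinates.

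Libraries were grouped by their labels. All 60 libraries in 20 groups entered 1 fit with edgeR 4.0.16 (R 4.3.3): TMM scaling, filterByExpr, robust quasi-likelihood test, Benjamini-Hochberg adjustment over 17368 genes, threshold 0.05. Every adjusted p in the report is from this test unless another setting is named beside it, ± after a log2 value is its SE and ± after CPM is the SD of 3 libraries. Totals ranged from 17.7 to 30.6 M counts. The test was checked on simulated data. The 13 alternatives included DESeq2 1.42.0, limma 3.58.1 (voom), other scalings, no filter and each of the 6 Polygalae 500 and wortmannin libraries left out in turn.

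Named genes were the 12 largest differences in each direction with at least 5 CPM in 1 group and groups that did not overlap, up to 4 called genes with the largest difference in each of 48 lists, and a panel. A further 39 genes were chosen after their values were seen. The comparison, the lists and the panel were chosen with earlier results of these data known. Motifs were searched on both strands of RefSeq promoters (GRCh38.p14), and 712 of 900 list and named symbols matched. Some results are not reported here.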

Additional observations from a re-analysis of the deposited data

How the results depend on the processing

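The count of differing genes, 7644, lay between 6737 and 8147 over 13 alternatives. It was 7640 with RLE factors, 7520 with upper quartile factors, 7020 with DESeq2, 7696 with limma-voom and 8147 with the 6 libraries alone. Leaving out 1 library at a time gave 6737 to 6996 genes, 3694 to 3838 higher and 3043 to 3158 lower, and 108 to 121 higher and 413 to 473 lower by at least 2-fold. Without the filter on low counts, 185 genes were higher by at least 2-fold, against 119. Upper quartile factors moved the median of all genes from 0.0025 to −0.059 and left 39.8% of called genes higher. They also moved 40 of 51 list medians by more than the SD of that median among the 3 Polygalae 500 libraries. Under at least 1 alternative 43 list medians moved that far. With the replicate block 7662 genes differed, 7605 of them shared with the fit without it. Same-numbered libraries deviated together at correlations of −0.035, 0.0058 and 0.053, so no shared deviation was seen. With 3 libraries a group, this cannot tell whether the numbers mark a common culture or day. Most named genes were chosen by rules that required passing, and the alternatives reuse the same libraries, so their agreement was largely set in advance. Of the values of named genes under the alternatives, 3302 kept their direction and side of the threshold, 61 no longer passed, 3 newly passed and none reversed. Among those that no longer passed, MKI67 stood at 0.20 with upper quartile factors (adjusted p = 0.067). Without the filter DEPTOR (adjusted p = 0.08), ATP6V0A2 (0.059) and SESN2 (0.053) did not pass, and DEPTOR did not with DESeq2 (0.069). Polygalae 500 had the lower depth, which limits calls among genes with few counts.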
